A study of Rattus norvegicus with 6 samples.

Results

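Filtered amino acids are taken back from the tubular fluid by transporters in the brush border of the proximal tubule, and then leave the cell for the blood through a second set of transporters in the basolateral membrane. The genes of both sets were compared in whole kidneys of congenic rats and of Dahl salt-sensitive rats. The list held 10 genes, chosen by function but with earlier results of these data known. They were 6 apical transporters or subunits (Slc6a18, Slc6a19, Slc6a20, Slc7a9, Slc3a1 and Slc1a1) and 4 basolateral ones (Slc38a3, Slc7a7, Slc7a8 and Slc3a2). Probe sets were taken where the array annotation gave a single symbol. By that rule 9 of the 10 genes were measured, with 11 of the 31042 probe sets that are not array controls. Slc6a19 had no such probe set in the annotation used here and was not analysed, and Slc6a20 is listed under its present rat name, Slc6a20a. Where a gene had more than 1 probe set, the one of highest mean signal over the 6 arrays was used and the other served as a check.

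The congenic group was 3 adult male rats of strain S.LEW(D1MCO4x1x3Bx1), which carry a Lewis (LEW) segment on the S background. The control group was 3 adult male rats of the inbred Dahl salt-sensitive strain (SS/Jr, called S), which becomes hypertensive. All animals thus share the S background outside the introgressed segment, and the labels give no diet or age in weeks. By its title the series belongs to the positional work on Adamts16 in inherited hypertension. Each rat had its own 1-colour Affymetrix array, and values below are scaled signals on a linear scale, with array medians of 163 to 178. A signal can be compared between rats for 1 probe set, but not between probe sets. The difference of a gene is given as log2, congenic minus S, with its standard error (SE) from limma, fitted over the 15521 probe sets of higher mean signal.

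Several of these proteins work in pairs. Slc3a1 encodes rBAT, the heavy subunit that brings the cystine and dibasic amino acid exchanger encoded by Slc7a9 to the brush border, and loss of either gene causes cystinuria in humans. Slc3a2 encodes 4F2hc, the heavy subunit of the basolateral exchangers encoded by Slc7a7 and Slc7a8. Slc38a3 encodes SNAT3, a basolateral sodium-coupled transporter that brings glutamine from the blood into proximal tubule cells, where it is the main source of urinary ammonia. It is induced in rat and mouse kidney by metabolic acidosis.

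Slc6a18 and Slc6a19, neighbours with 0 protein-coding genes between them in the gene order of assembly GRCr8, lie on chromosome 1 in the region of Adamts16, with 9 protein-coding genes between Slc6a18 and Adamts16. The labels do not say whether the Lewis segment of this strain reaches them. The promoters of these 2 genes, and of the exchanger pair Slc7a7 and Slc3a2, are shown because Slc6a18, Slc7a7 and Slc3a2 are 3 of the 4 genes whose strains did not overlap, and Slc6a19 because it adjoins Slc6a18. RefSeq windows were found for 8 of the 10 genes (all but Slc38a3, the fourth gene without overlap, and Slc1a1), with 2 for Slc3a2, of which the more upstream is shown. For each, the 250 bases before the transcription start are printed 5′ to 3′ on the gene's strand, with capitals marking matches to any of 4 motifs searched on both strands: GTTAAT (HNF1 half-site), AGGTCA (nuclear receptor half-site), TTCNNNGAA (STAT) and TATAAA (a core promoter element). Slc6a18 is at GRCr8 chr1:31436403-31436652 (plus strand), Slc6a19 at chr1:31414494-31414743 (plus strand), Slc7a7 at chr15:31835684-31835933 (minus strand) and Slc3a2 at chr1:215048065-215048314 (minus strand).
Slc6a18: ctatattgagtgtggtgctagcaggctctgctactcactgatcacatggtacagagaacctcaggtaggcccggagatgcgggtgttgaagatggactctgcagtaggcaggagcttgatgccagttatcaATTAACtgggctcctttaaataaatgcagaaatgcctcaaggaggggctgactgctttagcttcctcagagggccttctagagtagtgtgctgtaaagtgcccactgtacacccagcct
Slc6a19: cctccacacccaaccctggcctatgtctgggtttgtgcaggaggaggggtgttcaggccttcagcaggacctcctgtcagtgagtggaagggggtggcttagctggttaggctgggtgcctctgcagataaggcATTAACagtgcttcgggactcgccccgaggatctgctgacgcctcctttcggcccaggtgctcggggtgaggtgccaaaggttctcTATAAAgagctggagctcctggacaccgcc
Slc7a7: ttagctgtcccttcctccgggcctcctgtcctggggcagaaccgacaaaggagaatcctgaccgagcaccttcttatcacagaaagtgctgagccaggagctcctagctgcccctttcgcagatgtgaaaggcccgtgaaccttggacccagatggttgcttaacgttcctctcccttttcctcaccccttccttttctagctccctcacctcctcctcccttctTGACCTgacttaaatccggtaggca
Slc3a2: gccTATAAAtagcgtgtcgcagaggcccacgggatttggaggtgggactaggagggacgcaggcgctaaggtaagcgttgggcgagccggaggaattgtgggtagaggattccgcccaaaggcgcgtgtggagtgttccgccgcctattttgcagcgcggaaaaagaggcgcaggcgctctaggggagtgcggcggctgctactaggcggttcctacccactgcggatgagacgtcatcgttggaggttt
GTTAAT was found, on the opposite strand, at -119 to -114 in Slc6a18 and at -116 to -111 in Slc6a19, counted from the transcription start. Of 33469 windows of this length, 6.45% held GTTAAT on either strand, 14.1% held AGGTCA and 12.9% held TATAAA. In Slc6a19 the core promoter element was matched at -30 to -25, in Slc3a2 at -247 to -242, and AGGTCA at -25 to -20 in Slc7a7, on the opposite strand. TTCNNNGAA, held by 7.67% of windows, was not matched in these 4. A match is a stretch of letters, and no binding was measured.

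Slc38a3 had the highest log2 difference of the 9 genes measured. Its signal was 1466, 1273 and 1225 in the congenic rats, against 901, 937 and 669 in the S rats. The lowest congenic rat thus lay above the highest S rat, and S replicate 3 was the lowest of the 6. The means were 1322 ± 128 in congenic kidneys and 836 ± 145 in S kidneys (SD, n = 3 each), a fold of 1.59 with a 95% interval of 1.31 to 1.94. The log2 difference was 0.67 (SE 0.13), and its adjusted p in limma was 0.117, so it did not pass the threshold of 0.05. By unadjusted p it ranked 19 among the 15521 probe sets tested. With 1 rat left out in turn the log2 difference ran from 0.52 without S replicate 3 to 0.76 without S replicate 2, and its adjusted p from 0.0588 to 0.298. With all 6 rats but without limma's intensity trend in the variance, the adjusted p was 0.456. The interval and p thus depend on a variance shared with other probe sets. Only 1 probe set measured the gene, so no second one could serve as a check.

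**Figure D1:**
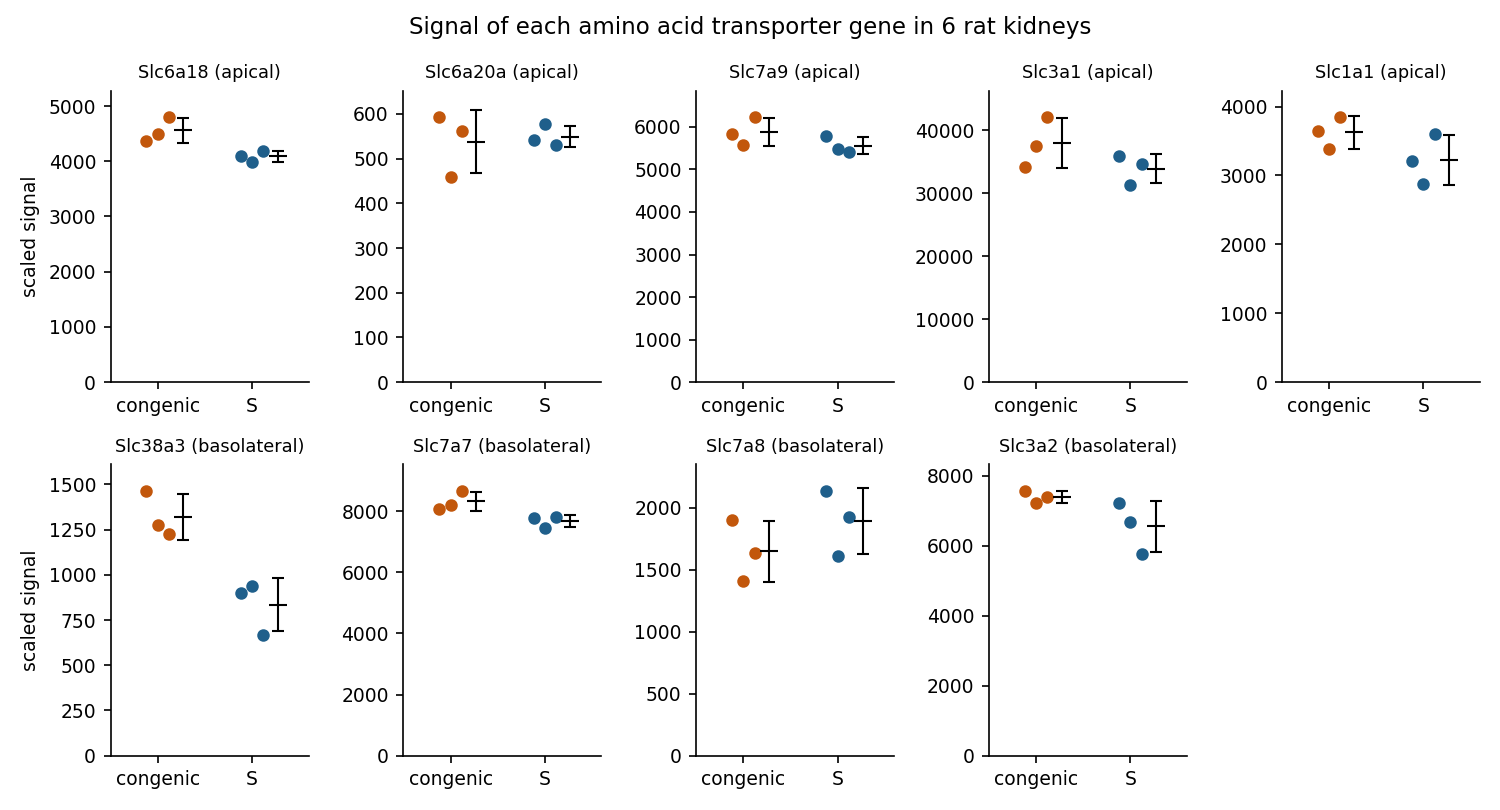
Scaled signal (vertical axis, linear, from 0) of the 9 genes measured in the 3 congenic and the 3 S rats, 1 point per rat, with mean and SD beside the points. The congenic points of Slc38a3 lie between 1225 and 1466, above the S points between 669 and 937, whereas those of Slc7a8, Slc7a9, Slc3a1, Slc1a1 and Slc6a20a overlap the S points.

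**Figure D2:**
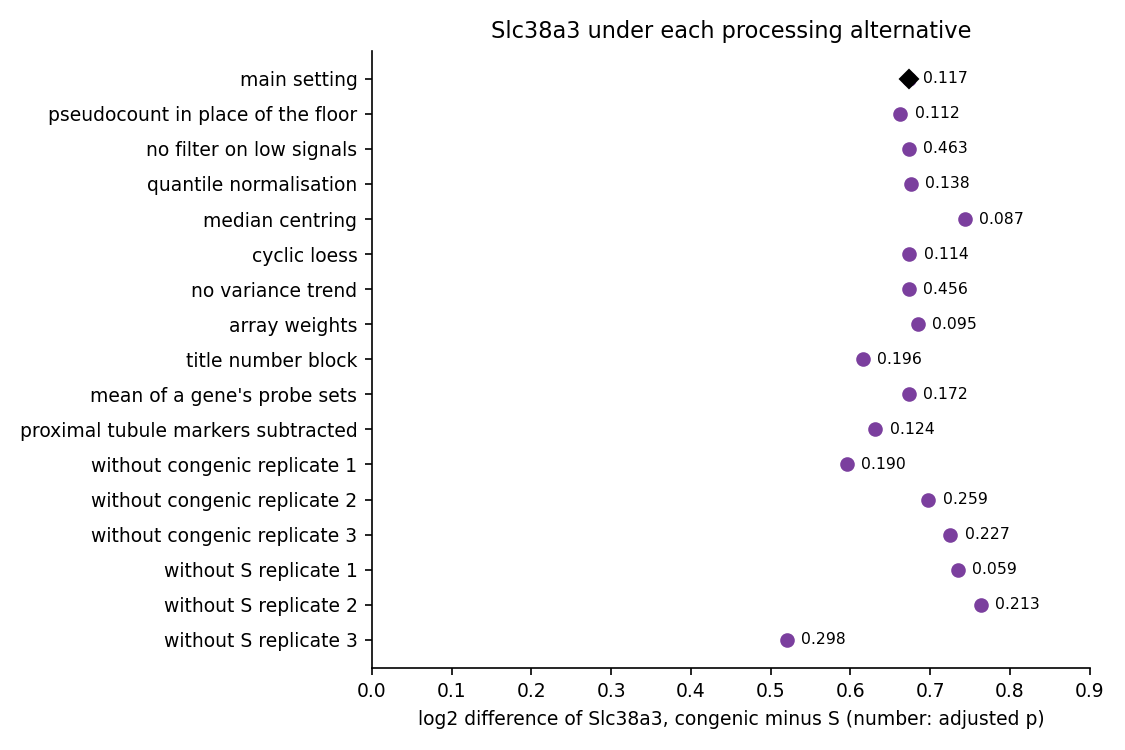
Log2 difference of Slc38a3, congenic minus S (horizontal axis), under the main setting (diamond) and each of 16 alternatives (circles), with limma's adjusted p beside each point. The difference lies between 0.52 and 0.76 throughout, and the adjusted p between 0.0588 and 0.463, so it never passes 0.05.

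The other basolateral genes had smaller log2 differences. Slc7a7 encodes y+LAT1, the exporter of lysine, arginine and ornithine that is lost in human lysinuric protein intolerance. It read 8085, 8189 and 8674 in congenic rats, against 7763, 7435 and 7819 in S rats. These values did not overlap, with a log2 difference of 0.12 (SE 0.07, limma adjusted p = 0.607). Its heavy subunit Slc3a2 read 7576, 7220 and 7389 in congenic rats, against 7213, 6664 and 5776 in S rats. The gap between the strains was narrow, from 7220 in congenic replicate 2 to 7213 in S replicate 1, and S replicate 3 was again the lowest. The log2 difference of Slc3a2 was 0.18 (SE 0.09, adjusted p = 0.493). GRCr8 also holds a pseudogene of it, Slc3a2-ps1 on chromosome X, whose part in the signal is unknown.

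Slc7a8 encodes LAT2, an exchanger of neutral amino acids, and was the 1 basolateral gene with a lower congenic mean. It read 1905, 1411 and 1634 in congenic rats, against 2141, 1614 and 1928 in S rats, so that the strains overlapped. The log2 difference was -0.20 (SE 0.12) with a 95% interval of -0.46 to 0.06. The log2 difference of Slc7a8 minus that of its partner Slc3a2 was -0.38, and the strains overlapped when the pair was compared rat by rat. For Slc7a7 minus Slc3a2 the value was -0.06, likewise with overlap.

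Among the apical genes, Slc6a18 encodes a carrier of glycine and other neutral amino acids, and mice without it lose glycine in the urine and were reported to have raised blood pressure. It read 4375, 4496 and 4801 in congenic rats, against 4090, 3992 and 4184 in S rats. All congenic values lay above all S values, by a modest margin relative to their level. The means were 4557 ± 219 in congenic kidneys and 4089 ± 96.2 in S kidneys (SD, n = 3 each). The log2 difference was 0.16 (SE 0.08, limma adjusted p = 0.505), with a 95% interval for the fold of 0.994 to 1.25.

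The cystinuria pair overlapped between the strains. The heavy subunit gene Slc3a1 read 34262, 37578 and 42127 in congenic rats, against 35895, 31308 and 34620 in S rats, a log2 difference of 0.16 (SE 0.09). Its partner Slc7a9 read 5829, 5565 and 6232 in congenic rats, against 5784, 5473 and 5412 in S rats, a log2 difference of 0.08 (SE 0.08). In both genes congenic replicate 3 was the highest of the 6 rats. The log2 difference of Slc7a9 minus that of Slc3a1 was -0.08, again with overlap rat by rat. Limma's adjusted p was 0.572 for Slc3a1 and 0.752 for Slc7a9.

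Slc1a1 encodes EAAC1, the carrier of glutamate and aspartate that is lost in human dicarboxylic aminoaciduria. It read 3645, 3382 and 3849 in congenic rats, against 3205, 2875 and 3602 in S rats, so that the strains overlapped through S replicate 3. Its log2 difference was 0.17 (SE 0.09, adjusted p = 0.548), and that of its second probe set was 0.15 (SE 0.10), also with overlap.

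Slc6a20a encodes SIT1, a carrier of proline and other imino acids. Its brighter probe set read 593, 458 and 561 in congenic rats, against 541, 577 and 530 in S rats, a log2 difference of -0.04 (SE 0.14). The second read 579, 508 and 518 in congenic rats, against 403, 503 and 480 in S rats, a log2 difference of 0.22 (SE 0.14) without overlap. The probe sets of Slc6a20a thus differed in sign, and neither had an interval away from 0. Slc6a20b, its neighbouring paralogue and not among the 10 genes, read 2167, 2233 and 2253 in congenic rats, against 1945, 2079 and 1508 in S rats, with a log2 difference of 0.28 (limma adjusted p = 0.404). How far the probe sets of these related genes share signal is not known from the files.

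**Figure D3:**
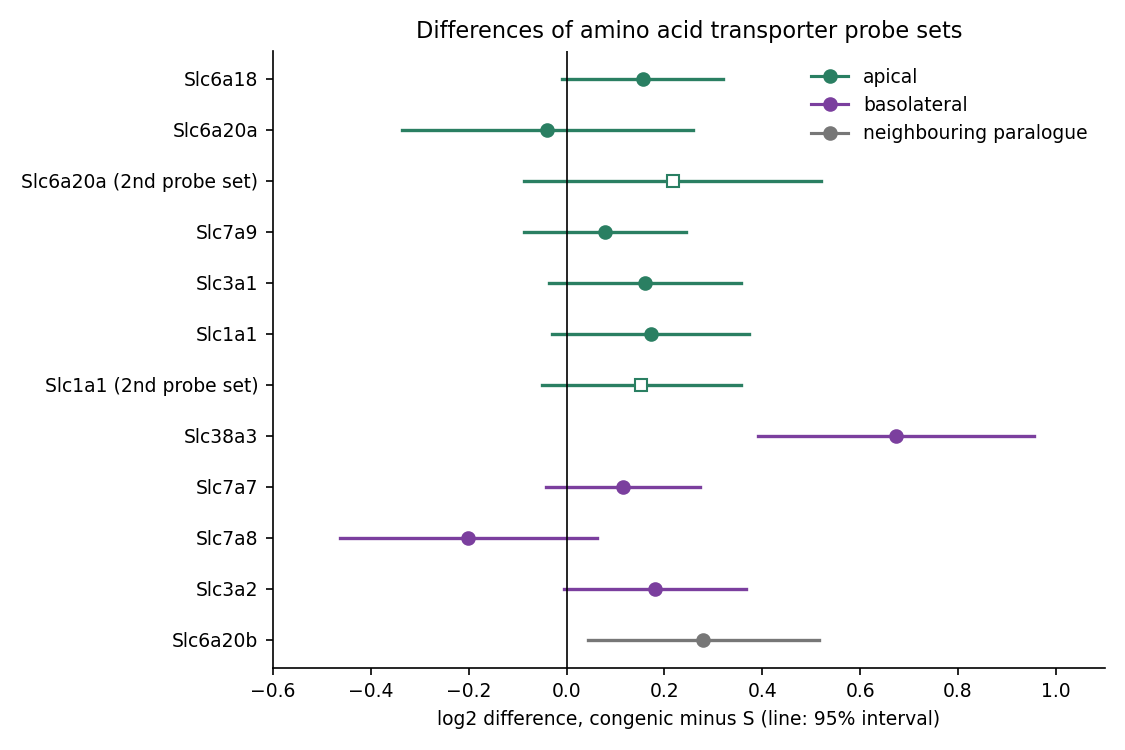
Log2 difference, congenic minus S (horizontal axis), of each probe set, with its 95% interval as a line, apical genes above basolateral ones. Filled circles are the probe sets used and open squares second probe sets. Slc38a3 lies at 0.67 with an interval of 0.39 to 0.96, the intervals of the other 8 genes include 0, and that of the paralogue Slc6a20b, in grey, runs from 0.04 to 0.52.

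Taken by membrane, the 5 apical genes measured had a median log2 difference of 0.16 (range -0.04 to 0.17) and the 4 basolateral genes 0.15 (range -0.20 to 0.67). The median over all 15521 probe sets tested was -0.01. Positive differences were found in 4 of 5 apical and 3 of 4 basolateral genes, against 48.2% of all probe sets tested. By mean signal the genes lay between percentile 73.9 (Slc6a20a) and 99.96 (Slc3a1) of all probe sets that are not controls. Shares over probe sets of like signal were not computed. Past limma's adjusted threshold there were 0 of 9 genes and 0% of all probe sets tested. At unadjusted p under 0.05 there was 1 of 9 with a higher congenic signal, Slc38a3, against 4.72% of all probe sets in that direction, and 0 with a lower one, against 5.61%. All congenic values lay above all S values in 1 apical and 3 basolateral genes, 4 of 9 in all, against 7.98% of all probe sets tested, and below all S values in 0 of 9, against 7.99%. These are largely proximal tubule genes and are not independent of each other. They were also chosen with earlier results of these data known, so the shares describe this list and are no test of it. The apical median was 0.06 after cyclic loess, 0.09 after quantile normalisation, 0.08 without congenic replicate 3 and 0.09 without S replicate 2. A difference between apical and basolateral genes was not tested.

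In whole kidney, fewer cells of a type and less RNA per cell cannot be told apart, so proximal tubule markers were set beside the transporters. All 22 of the markers listed were above the filter on low signals, and their median log2 difference was 0.08. Positive differences were found in 13 of 22, against 48.2% of all probe sets tested. At unadjusted p under 0.05 in limma, 2 of 22 were higher, against 4.72% of all probe sets, and 1 of 22 lower, against 5.61%. The markers' mean log2 deviation from the average of the 6 rats was 0.00662 to 0.0322 in congenic rats, against -0.0496 to 0.00282 in S rats. Their summed signal was 259973 to 279876 in congenic rats, against 246558 to 263087 in S rats. With each array's marker deviation subtracted, the apical and basolateral medians were each 0.11 and Slc38a3 had 0.63 (limma adjusted p = 0.124). The subtraction takes 1 value per array from all probe sets, so all log2 differences fell alike. The median over all probe sets tested went from -0.01 to -0.05. Of the other cell types, loop of Henle and distal tubule markers had a median of -0.06 (8 of 9 measured genes above the filter), collecting duct markers -0.01 (11 of 11), podocyte markers 0.05 (4 of 4), endothelial and smooth muscle markers -0.06 (8 of 9) and leukocyte markers 0.01 (6 of 10, Cd3e, Cd8a, Cd79b and Itgam being below). Both erythrocyte markers measured, Hbb and Alas2, had negative log2 differences, with a median of -0.49. Of 7 adipocyte and adrenal markers, 5 were below the filter, among them Adipoq, Lep and Cyp11b1. The part of these cell types in the transporter values was not tested, and the subtraction cannot show it because it moved all probe sets alike.

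Slc38a3 was then set beside the enzymes that use its substrate. Of 8 tested genes of glutamine use and ammonia formation, 5 had a positive log2 difference, against 48.2% of all probe sets tested. The median was 0.13. At unadjusted p under 0.05 in limma, 2 of 8 had higher congenic signals, against 4.72% of all probe sets tested. Lower ones were found in 0 of 8, against 5.61%. Glul, glutamine synthetase, read 18578, 16955 and 18572 in congenic rats, against 15116, 14101 and 15916 in S rats. Its strains did not overlap, and its log2 difference was 0.26 (SE 0.08, limma adjusted p = 0.279), while its 2 other probe sets had 0.08 and 0.26. Pck1, the cytosolic enzyme that starts glucose synthesis from the carbon of glutamine, read 22012, 17926 and 19474 in congenic rats, against 17083, 16232 and 17875 in S rats. The gap for Pck1 was small, with 17926 in the lowest congenic rat and 17875 in the highest S rat, and its log2 difference was 0.21 (SE 0.09, adjusted p = 0.421). Got2, the mitochondrial aspartate aminotransferase, had 0.16 (adjusted p = 0.503). No gene of this group passed limma's threshold.

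Other amino acid and peptide transporters had no common direction. Of 27 with a probe set, 16 were above the filter, the median log2 difference was 0.07 and 0 passed limma's threshold. Positive differences were found in 9 of 16, against 48.2% of all probe sets tested. At unadjusted p under 0.05 there were 2 of 16 with lower congenic signals, against 5.61% of all probe sets tested, and 0 with higher ones, against 4.72%. Both are members of the SLC38 family. Slc38a2, which encodes the widely expressed SNAT2, read 2201, 2358 and 2082 in congenic rats, against 2927, 2923 and 2580 in S rats, a log2 difference of -0.34 (SE 0.09, adjusted p = 0.226). Slc38a7 read 411, 381 and 410 in congenic rats, against 569, 531 and 532 in S rats, a log2 difference of -0.44 (SE 0.14, adjusted p = 0.285). Neither overlapped between strains, and both lay opposite in sign to Slc38a3. Slc7a1, the cationic amino acid transporter CAT1, had -0.29, and its 2 other probe sets -0.20 and -0.45. Slc43a2, which encodes LAT4, a basolateral exit route for branched-chain amino acids, had 0.11 without overlap, while its other probe set had -0.14. Slc7a13, which encodes AGT1, a second partner of rBAT in mouse kidney, had 0.09. Slc43a2 and Slc7a13 were named after their values were seen.

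Genes for proteins that carry or hold the apical transporters in the brush border, or regulate them, were taken next. Of 9 tested genes, 0 passed limma's threshold and 7 had a positive log2 difference, against 48.2% of all probe sets tested, with a median of 0.11. At unadjusted p under 0.05 there was 1 of 9, with a higher congenic signal, against 4.72% of all probe sets. It was Anpep, the brush border aminopeptidase that associates with the carrier encoded by Slc6a19, with 15248, 16168 and 16348 in congenic rats, against 13559, 13448 and 14299 in S rats. Its log2 difference was 0.21 (SE 0.07, limma adjusted p = 0.348). The scaffold gene Nherf1 had 0.14, with 0.32 in its other probe set. The kinase gene Jak2 had 0.31 (SE 0.19, limma adjusted p = 0.597), with overlap between the strains. Cltrn, which encodes collectrin, the partner needed by Slc6a18 and Slc6a19 proteins at the membrane in mice, read 19234, 21076 and 20368 in congenic rats, against 20306, 18038 and 19071 in S rats. These overlapped, with a log2 difference of 0.08, and Cltrn was named after its values were seen.

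**Figure D4:**
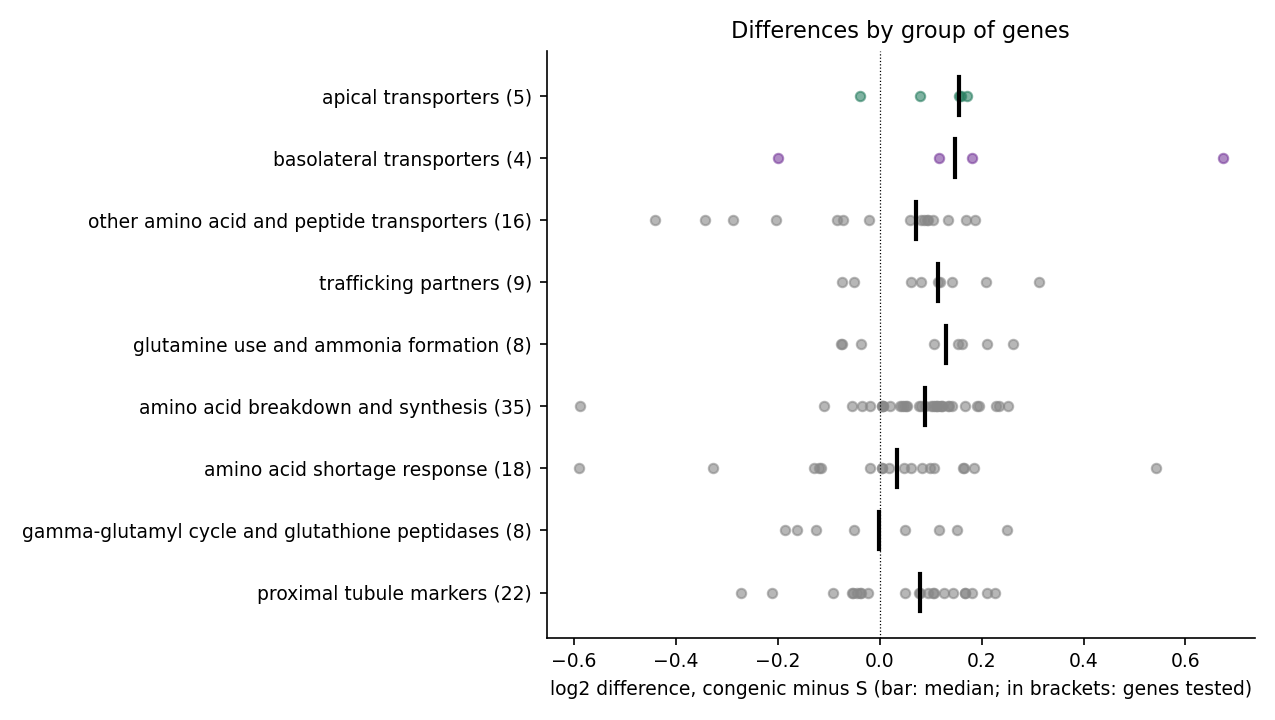
Log2 difference, congenic minus S (horizontal axis), of each tested gene, 1 point per gene, by group, with the median as a black bar. The medians are 0.16 for apical and 0.15 for basolateral transporters, 0.13 for glutamine use and ammonia formation, 0.07 for other transporters and 0.08 for proximal tubule markers, and Slc38a3 is the highest point shown.

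Enzymes of amino acid breakdown and synthesis in the tubule had positive differences in 30 of 35 tested genes, with a median log2 difference of 0.09, against 48.2% positive over all probe sets. For none of the further lists were shares over probe sets of like signal computed, and all lists were chosen with earlier results known. At unadjusted p under 0.05 there were 4 of 35 with higher congenic signals, against 4.72% of all probe sets tested, and 1 of 35 with lower ones, against 5.61%, and 0 passed limma's threshold. Gldc, the glycine decarboxylase, read 2937, 2712 and 3123 in congenic rats, against 2471, 2580 and 2316 in S rats, a log2 difference of 0.25, while its 2 other probe sets had -0.05 and 0.06. Asl, argininosuccinate lyase of arginine synthesis, had 0.23 in both of its probe sets. Sds, serine dehydratase, had -0.59, with 169, 157 and 203 in congenic rats, against 291, 254 and 249 in S rats. The mean log2 deviation of the group was 0.03 to 0.04 in congenic rats, against -0.05 to -0.02 in S rats. That of the proximal tubule markers was also apart, but narrowly, from 0.00662 in the lowest congenic rat to 0.00282 in the highest S rat. The summed signals of those markers overlapped between the strains. A link between the enzymes and the markers was not tested.

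Targets of ATF4, the transcription factor of amino acid shortage that also drives Slc3a2, had a median log2 difference of 0.03. Of 18 tested, 12 were positive, against 48.2% of all probe sets tested. At unadjusted p under 0.05 in limma, 1 of 18 was higher in congenic rats, against 4.72% of all probe sets, and 1 of 18 lower, against 5.61%. The seryl-tRNA synthetase gene Sars1 read 1824, 1867 and 1900 in congenic rats, against 1362, 1559 and 985 in S rats, a log2 difference of 0.54 (SE 0.13, limma adjusted p = 0.21). The transcription factor gene Atf5 read 649, 474 and 604 in congenic rats, against 717, 667 and 1327 in S rats, a log2 difference of -0.59 (SE 0.21, adjusted p = 0.35). S replicate 3 was the lowest rat for Sars1 and the highest for Atf5. Sesn2, a sensor of leucine, had 0.19, but its other probe set had -0.27. In the gamma-glutamyl cycle, brush border gamma-glutamyl transferase splits glutathione into amino acids for uptake. Of its 8 tested genes, 4 were positive, against 48.2% of all probe sets tested, and the median was -4.87e-04. At unadjusted p under 0.05 in limma, 1 of 8 was higher, against 4.72% of all probe sets, and 1 of 8 lower, against 5.61%. The synthesis gene Gss had 0.25, whereas Ggct had -0.19 and the glutamate-cysteine ligase subunit gene Gclm had -0.16.

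The profile of Slc38a3 over the 6 rats was compared with those of 9333 other named genes by the root mean square distance of log2 values, each gene centred on its own mean. The nearest were Pigt (0.12), Ddx49 (0.12), Abcb6 (0.13), Sars1 (0.13) and Nfkb1 (0.13), where the median gene lay at 0.40. All 5 had S replicate 3 as their lowest rat. Pigt, a subunit gene of the enzyme that attaches GPI anchors, read 1863, 1678 and 1461 in congenic rats, against 1347, 1185 and 984 in S rats, but its other probe set had a log2 difference of -0.12. The 5 were picked for their likeness, so their differences are no further evidence. Of the transporters, Slc3a2 came closest to Slc38a3, at a distance of 0.27 and position 338 of 9333, and Slc7a8 was the farthest, at 0.49.

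**Figure D5:**
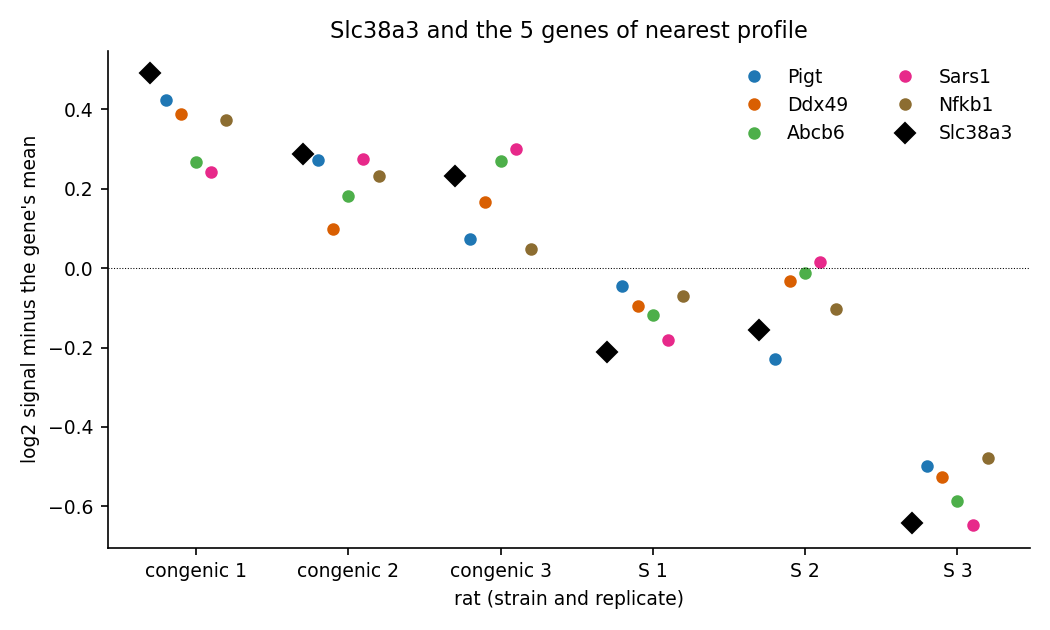
Log2 signal minus the gene's mean over the 6 arrays (vertical axis) in each rat (horizontal axis) for Slc38a3, as black diamonds, and the 5 genes of nearest profile, as coloured points. Slc38a3 lies at 0.49, 0.29 and 0.23 in the congenic rats, against -0.21, -0.16 and -0.64 in the S rats.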

How the data were processed

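Kidney RNA of 3 congenic and 3 S rats was measured on 1-colour Affymetrix arrays. The deposited table holds a linear intensity for each probe set, which the authors computed in GCOS 1.4 (submitters' processing notes). Its settings and detection calls are not known. The mean of each array after trimming 2% at either end was 500.2, so the arrays were already on 1 level and were not normalised again. After 57 control probe sets were left out, signals below the table's 10th percentile (12.3) were set to that value before log2. The brighter part of the probe sets by mean log2 signal (above the median, 15521 of 31042) was tested with limma 3.58.1 in R 4.3.3 (eBayes with intensity trend), as congenic minus S, adjusted by Benjamini-Hochberg over all 15521 and a threshold of 0.05. An exact permutation test of 3 against 3 cannot go below p = 0.1.

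Symbols came from the array annotation and were updated through Entrez identifiers to GRCr8: 20826 probe sets had 1 symbol, 436 several and 9780 none. The 10 genes and the further lists were chosen with earlier results of these data known. Named are all members, from each further list the 3 genes of smallest p, and the 5 genes nearest to Slc38a3. Nothing says that the rats came from separate litters, so p-values concern these rats only. Limma draws the variance of each probe set toward that of probe sets of like signal (prior degrees of freedom 10.7). Its SEs, intervals and p-values thus do not rest on the spread between these rats alone. The procedure was tested on simulated data with noise drawn independently for each probe set. Patterns shared between genes were not simulated. The number of arrays limits the precision, with a median SE of 0.14. Alternatives covered the floor (a pseudocount of 16), the filter, the normalisation, the variance model, array weights, the title number (up to 9 against 13 and above) as a block, the choice of probe set, each rat left out and, added after the data were seen, subtraction of the proximal tubule markers. Figures were drawn with matplotlib 3.10.9.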

Additional observations from a re-analysis of the deposited data

How the results depend on the processing

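Over 16 alternatives, 0 of the 9 transporters passed limma's adjusted p of 0.05, and 0 genes of the 6 further lists did. Slc38a3 kept a positive log2 difference in 16 of 16, from 0.52 to 0.76. Slc6a18, Slc3a1, Slc7a9, Slc1a1, Slc7a7 and Slc3a2 also stayed positive in 16 of 16, and Slc7a8 stayed negative. Some alternatives could not change a log2 difference. These were the fits without the filter or the variance trend, and the mean of probe sets for a gene with only 1. Slc6a20a turned positive with median centring (0.0316), with the mean of its probe sets (0.0889) and without congenic replicate 2 (0.0717), its range with 1 rat left out being -0.11 to 0.0717. The apical median was 0.0623 after cyclic loess, and ran from 0.0826 to 0.17 with 1 rat left out. The basolateral median was 0.22 with median centring, and ran from 0.11 to 0.19 with 1 rat left out. Median centring raised all log2 differences alike, that of Slc6a20a included. The median over all probe sets tested went from -0.01 to 0.06 with it. The count of probe sets past the threshold in limma was 0 (1602 at unadjusted p under 0.05), 9 with median centring, and 0 to 41 with 1 rat left out (41 when S replicate 1 was omitted, 6 when congenic replicate 1 was and 3 when congenic replicate 3 was). The causes were not tested. No paired analysis was possible because the strains share no replicate numbers in the labels. Of the 9 transporters, 7 rest on a single probe set, and without detection calls a low signal cannot be told from background.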

Other observations

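S replicate 3 was the lowest of the 6 rats for Slc38a3, Slc3a2, Slc6a20b and Sars1, and the highest for Atf5. Over all 15521 probe sets tested, S replicate 3 was the lowest rat in 17.2% and the highest in 18.5%, and congenic replicate 3 was the lowest in 18.6% and the highest in 17.3%. The shares of the other 4 rats lay between 14.8% and 17.3%.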
